A study of Homo sapiens with 2 samples.

Results

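The structured noncoding RNAs examined here are the RNA parts of ribonucleoprotein particles, together with a microRNA gene of the ribosomal DNA repeat. Of 7 genes named, RN7SL1, RN7SL2, RN7SK, RMRP, RPPH1, TERC and MIR3648, 5 were found by symbol among the 57736 gene identifiers of the expression tables. RN7SL1 and RPPH1 had no matching symbol and are reported as missing. RN7SL2, RN7SK, TERC and MIR3648 were matched by gene identifier, and RMRP through the identifier of its transcript.

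The RNA came from HEK293T, a cell line derived from human embryonic kidney that expresses the large T antigen of SV40, and the cells are recorded as wild type. By the labels, all cells had been heated at 43 °C for 20 min and returned to 37 °C for 6 h before lysis. The paper that reported the data gives a longer time at 43 °C for its heat shock. The 2 libraries are replicates 1 and 2 of this single group, lysed separately, although the labels do not say whether they were separate cultures, and each holds poly(A)+ RNA sequenced with reads of 50 bp. The molecule is entered in the labels as genomic DNA, although their protocol purifies poly(A)+ RNA. Unheated cells were not analysed here, so no value below measures a change with heat.

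RNAs of this kind fold into stable structures, and most work inside a particle with proteins rather than as templates for translation. 7SL RNA, encoded by RN7SL1 and RN7SL2, is the scaffold of the signal recognition particle (SRP) that guides ribosomes to the endoplasmic reticulum, 7SK RNA holds the elongation factor P-TEFb in an inactive state, RMRP and RPPH1 RNA are the cores of RNase MRP and RNase P, and TERC carries the template for telomere repeats. 7SL, 7SK, RMRP and RPPH1 RNA are made by RNA polymerase III and end without the poly(A) tail on which the purification of these libraries depended, and mature TERC also lacks one.

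Sequences of RN7SK and RMRP are shown because some of these RNAs have near copies in the genome, with which reads are shared, and others have none. They were read from GRCh37, with positions from a GENCODE annotation of that build, and are written 5′ to 3′ as DNA in the sense of the RNA. RN7SK lies at chr6:52860418-52860748 on the plus strand, and its bases 32 to 331, at chr6:52860449-52860748, are shown. Capitals mark the bases inside at least 1 stretch of 50 bases, the length of a read, that occurs nowhere else in the genome on either strand. RMRP lies at chr9:35657751-35658014 on the minus strand and is in capitals throughout, because none of its 50-base stretches recurred.
RN7SK: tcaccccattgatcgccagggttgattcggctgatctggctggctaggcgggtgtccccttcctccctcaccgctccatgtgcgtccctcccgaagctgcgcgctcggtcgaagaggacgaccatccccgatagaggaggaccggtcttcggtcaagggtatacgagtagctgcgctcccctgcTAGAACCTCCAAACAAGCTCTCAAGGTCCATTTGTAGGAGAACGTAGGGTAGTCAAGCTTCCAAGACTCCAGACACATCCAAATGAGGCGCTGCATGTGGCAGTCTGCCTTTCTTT
RMRP: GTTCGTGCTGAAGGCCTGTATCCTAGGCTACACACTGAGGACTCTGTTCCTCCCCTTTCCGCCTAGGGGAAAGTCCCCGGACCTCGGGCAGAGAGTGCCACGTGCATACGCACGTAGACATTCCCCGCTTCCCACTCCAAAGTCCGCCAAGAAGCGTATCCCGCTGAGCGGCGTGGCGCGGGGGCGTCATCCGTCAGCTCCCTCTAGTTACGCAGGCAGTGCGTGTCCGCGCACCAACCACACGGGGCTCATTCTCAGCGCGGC

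Of 248 stretches of 50 bases in RN7SL2, 218 (87.9%) recurred elsewhere, at 48 places. In RN7SK 216 of 282 stretches (76.6%) recurred, at 11 places. The capitals of RN7SK fill its 3′ portion. A read from the lower-case parts matched more than 1 place exactly, and the tables shared such reads among copies by estimation. No stretch of RMRP (215) or TERC (492) recurred.

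TERC is annotated at chr3:169482308-169482848 on the minus strand. Its first 120 bases, at chr3:169482729-169482848, are shown with the telomere template in capitals at bases 46 to 56.
TERC: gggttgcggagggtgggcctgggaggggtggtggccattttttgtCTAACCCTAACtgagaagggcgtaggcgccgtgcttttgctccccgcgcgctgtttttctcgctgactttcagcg

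MIR3648 is dense in G and C, at 83.9% of its bases, against 58.0% to 66.7% in the other members. Of its 131 stretches of 50 bases 54 (41.2%) recurred, all of them on 1 unplaced contig of the assembly and none on another sequence. In the RefSeq gene table, which is of another build (GRCh38) and is used for names and neighbours only, MIR3648-1 is contained in RNA45SN2, a gene for the 45S precursor of ribosomal RNA. The copy MIR3648-2 is contained in no gene of that table, and its nearest gene is MIR10396A. Which copy matches the gene measured here was not tested. Reads of the microRNA precursor and of a ribosomal transcript that contains it cannot be told apart. The neighbouring microRNA gene MIR3687, on the same strand 191 bases away, held 0 expected counts in replicate 1 and 5 in replicate 2.

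Runs of A, the base that oligo(dT) beads bind, were short in the genomic sequence of all 5 listed members. The longest run was 4 bases in RN7SL2, 3 in RN7SK and RMRP, 6 in TERC and 1 in MIR3648. Across 65613 annotated transcripts of 150 to 600 bases the median longest run was 4, and 1.81% held a run of 10 or more. A run of 6 or more, as in TERC, was present in 19.5% of them. How these RNAs entered the libraries was not tested.

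The tables held 22529828 expected counts in replicate 1 and 26890199 in replicate 2. An expected count is an estimate of the reads from a gene, and 3 counts corresponded to 0.133 and 0.112 CPM, the count scaled to library size. TPM, a level per transcript length, divides the count by the part of the transcript where a read can start and scales the library to a fixed sum. All 5 listed markers of HEK293T cells (VIM, KRT18, LIN28B, KRT8 and PAX2) had at least 1 TPM in both libraries. None of 6 markers of mature kidney did, and their highest mean was 0.155 TPM. Of 5 listed markers of other cells, COL1A1 (22.5 TPM) and COL3A1 (1.83 TPM) passed this level.

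All 5 listed members were detected, taken here as at least 1 TPM in both libraries, against 26.3% of all identifiers. Among annotated genes of the class miscellaneous RNA, to which RN7SL2 and RN7SK belong, 2.71% of 2030 were detected, and 2.63% of 3043 genes for microRNAs. The class miscellaneous RNA also holds pseudogenes, such as RN7SL737P. Of 858 listed RN7SL pseudogenes 13 were detected, and of 294 listed RN7SK pseudogenes 1 was. Of 16671 genes between 150 and 600 bases 6.27% reached this level and 62.6% had no count in either library. By mean TPM RN7SK and RN7SL2 ranked 1 and 2 among the annotated genes of their class, and MIR3648 ranked 5 among microRNA genes. By mean TPM, the order of the members was MIR3648, RMRP, RN7SK, RN7SL2 and TERC.

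MIR3648 (ENSG00000264462), the highest member, had 133 TPM in replicate 1 and 114 in replicate 2, a mean of 124 ± 13.2 (SD, n = 2). These levels rested on 320 and 313 expected counts. Both libraries were close to each other and above every other member. The posterior SD, which measures how much the count moved when reads of several possible origins were reassigned at random by the authors' estimator, was 0 in both.

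RMRP (ENSG00000269900) had 51.8 and 45.3 TPM in replicates 1 and 2, a mean of 48.6 ± 4.60 (SD, n = 2), from 204 and 203 expected counts with a posterior SD of 0. RN7SK (ENSG00000202198) had 41.2 and 34.6 TPM, a mean of 37.9 ± 4.67 (SD, n = 2), from 212 and 203 expected counts. The posterior SD of RN7SK was 2.63 and 2.6 counts, although 76.6% of its stretches had copies in the genome. The credibility bounds of TPM, which the authors' estimator gives for each library, ran for RMRP from 43.7 to 57.4 and from 38.3 to 50.4. For RN7SK they ran from 34.2 to 45.0 and from 28.7 to 38.0. The bounds of these neighbours in the order overlapped in replicate 1, whereas in replicate 2 those of RN7SK ended just below those of RMRP.

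RN7SL2 (ENSG00000265150) had 36.4 TPM in replicate 1 and 16.9 in replicate 2, a mean of 26.7 ± 13.8 (SD, n = 2). The expected counts were 165 and 87.5, with posterior SDs of 15.0 and 13.9, or 9.09% and 15.9% of the count. It was the least steady of the members, and its bounds of 26.8 to 43.2 TPM in replicate 1 and 10.5 to 22.8 in replicate 2 did not overlap. In replicate 1 its bounds overlapped those of RN7SK, and in replicate 2 they lay below them.

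TERC (ENSG00000270141) had 3.09 and 3.21 TPM, a mean of 3.15 ± 0.085 (SD, n = 2), from only 22 and 26 expected counts. The replicates were nearly equal, yet the bounds of 1.92 to 4.44 and 2.07 to 4.48 TPM were wide for so small a count. These bounds lay below those of every other member in both libraries. Its mean was nevertheless higher than that of 78.1% of all identifiers, against 91.2% for RN7SL2, 93.3% for RN7SK, 94.6% for RMRP and 98.1% for MIR3648.

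**Figure D1:**
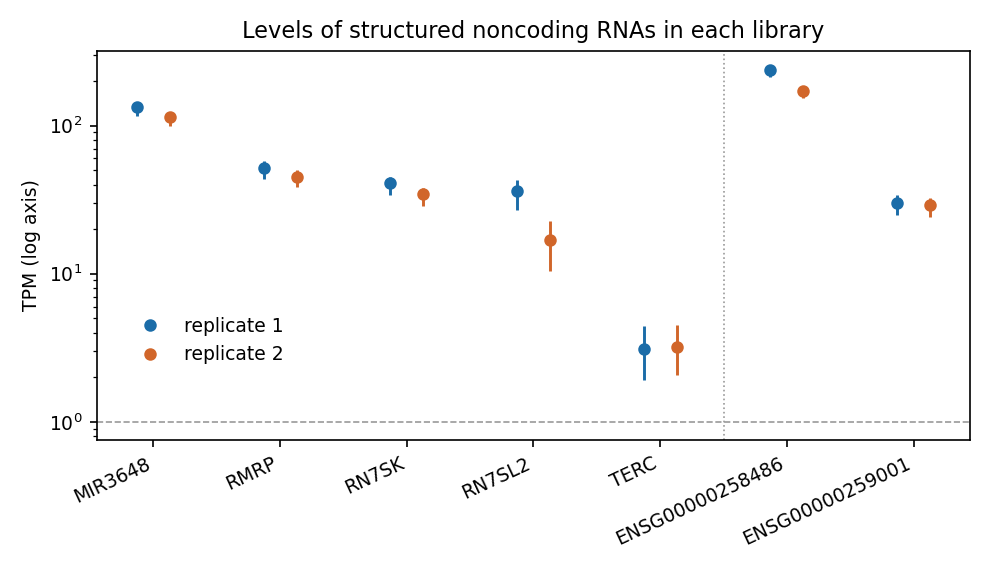
TPM of the 5 listed members and of 2 identifiers without a symbol (right of the dotted line) in replicate 1 (blue) and replicate 2 (orange), on a log axis. Vertical lines span the credibility bounds of each library and the dashed line marks 1 TPM; only for RN7SL2 among the members do the 2 bounds not overlap.

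The short length of these genes raised their rank in TPM above their rank in reads. MIR3648 ranked 1019 and 1228 of 57736 identifiers by TPM in replicates 1 and 2, but 9004 and 9879 by expected count. RMRP ranked 2819 and 3383 by TPM and 10332 and 11066 by count. The 5 members together held 0.0266% and 0.0214% of all TPM (0.0240% ± 0.00362, SD, n = 2) but 0.00410% and 0.00310% of all expected counts. With the unnamed identifiers ENSG00000258486 and ENSG00000259001, the shares of TPM were 0.0532% and 0.0416%. For the 5 members the share of TPM was thus 6.48 and 6.93 times the share of reads, which amounted to 924 and 832 counts in all.

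The protein-coding genes of nearly equal TPM show the same gap in reads. STMN3 and WSB2 were nearest to RMRP in log2(TPM + 1) over the 2 libraries, and STMN3 reached 52.0 and 45.4 TPM with 1477 and 1498 counts. PIGT reached 133 and 112 TPM, beside MIR3648, with 4022 and 3866 counts, and YIF1A 134 and 114 TPM with 1563 and 1484. For RN7SK the nearest were GNPDA1 and GYPC, for TERC ANKRD23 and TGFBR2, and for RN7SL2 the microRNA genes MIR762 and AC005702.1. MIR762 held 24.2 and 14.4 counts, and its lower level in replicate 2 follows from its choice as nearest to RN7SL2.

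MIR3648 also depends most on how length is treated. Its 180 bases left 131.9 positions at which a read could start in replicate 1, so that its TPM was 1.36 times what the whole length would give before rescaling. When expected counts were divided by the whole deposited length instead, its mean became 97.4 TPM, RMRP 42.7 and TERC 3.02. TERC is annotated with 541 bases but has a deposited length of 438, which was the one used. The order of the members by mean TPM was the same.

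**Figure D2:**
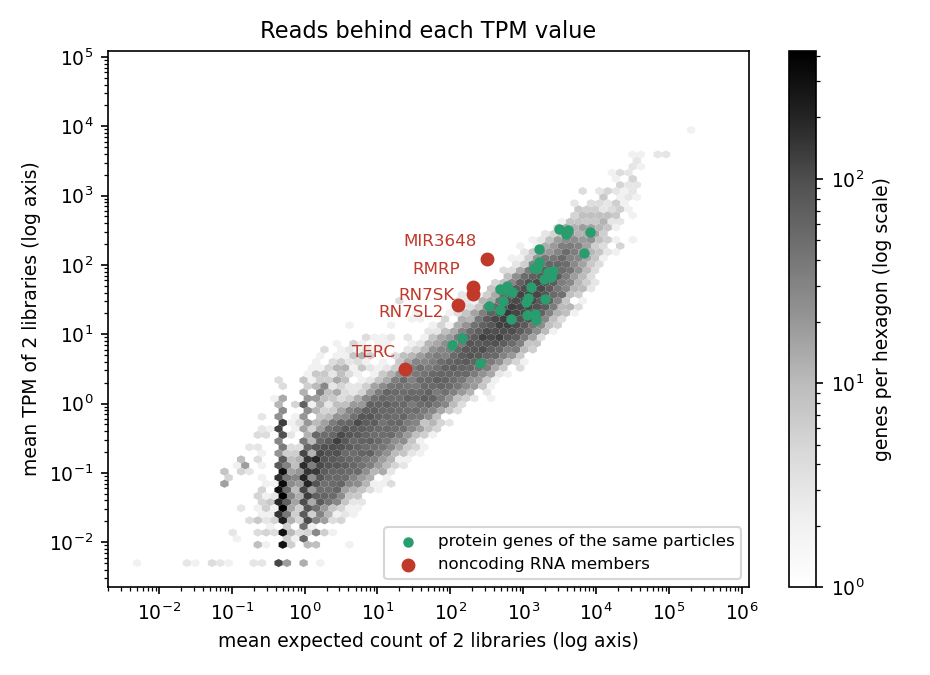
Mean TPM against mean expected count of the 2 libraries for all genes with a count (grey hexagons, darker for more genes), both on log axes. The 5 members (red) have more TPM per read than the protein genes of the same particles (green). MIR3648 reached 124 TPM with 320 and 313 counts.

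Among the listed members, RN7SL2 had the largest posterior SD relative to its count. RN7SL3, which shares all but 11 of 297 bases with RN7SL2 (96.3% identity) and lies 8638 bases away on the same strand, had 13.9 TPM in both libraries, from 63.2 and 72.0 expected counts with posterior SDs of 9.91 and 9.91. Its level was lower than that of RN7SL2 in each library, and it was nearly equal in both. The 858 listed pseudogenes of the family held 486 and 727 counts in sum, spread over 332 genes. The 3 with the most counts were RN7SL832P, RN7SL737P and RN7SL529P. RN7SL737P had 37 counts in replicate 1 and 77 in replicate 2.

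Among the identifiers of the tables, 4 had no annotated gene and a length of 297 bases, equal to that of RN7SL2. One of them, ENSG00000258486, which was picked out after its values were seen, had 236 and 172 TPM (204 ± 45.1, SD, n = 2). It held 1072 and 890 expected counts with posterior SDs of 17.3 and 15.9. No table at hand gives its name, so it was not counted as a member. It exceeded every member in both libraries.

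Together, RN7SL2, RN7SL3 and that identifier, which only its length ties to RN7SL2 here, held 1301 and 1050 counts. RN7SL2 made up 12.7% of this sum in replicate 1 and 8.33% in replicate 2. The log2 ratio of replicate 2 over replicate 1 was -0.80 for RN7SL2 and RN7SL3 summed, and -0.59 for all 3. RN7SL2 had the lowest log2 ratio of the 3, so either sum was bound to be closer between the libraries than RN7SL2 alone. Whether reads were shared differently among them in the 2 libraries was not tested.

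The copies of RN7SK drew far fewer reads than RN7SK itself. The 294 listed pseudogenes held 57.1 and 105 counts in sum, against 212 and 203 for RN7SK, and 56 of them had any count. RN7SKP269, RN7SKP150 and RN7SKP38 had the most, with at most 13 counts in a library. RMRP has 5 listed pseudogenes, of which RMRPP2 alone had counts, 9 and 8. The 2 listed pseudogenes of RPPH1 had none.

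RPPH1 itself was missing by symbol. In the RefSeq gene table its nearest gene is PARP2, which encodes a DNA repair enzyme. An unnamed long noncoding gene overlapping the start of PARP2 on the other strand, ENSG00000259001 at chr14:20811207-20811844, had 30.2 and 29.1 TPM (29.7 ± 0.79, SD, n = 2). It held 158 and 174 expected counts, with posterior SDs of 0.24 and 0.67, and the libraries were nearly equal. This identifier too was picked out after its values were seen and is not called RPPH1 here.

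Reads of neighbouring genes could bear on some values, since no source used here says whether strand was counted. RN7SL2 lies wholly within a long noncoding gene of the same strand, ENSG00000282885, which the tables do not list. RN7SK starts 315 bases from GSTA4 on the opposite strand, which had 29.2 and 30.5 TPM, and RMRP lies 272 bases from CCDC107, with 11.6 and 10.8 TPM. ACTRT3, 1860 bases from TERC, had 0.98 and 1.08 TPM. Among these neighbours none overlapped RN7SK, RMRP, TERC or MIR3648.

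The comparison of the libraries asks how far separately lysed replicates of 1 treatment agree on these RNAs. Log2 ratios of replicate 2 over replicate 1 were scaled by TMM, and rounded counts were compared with an exact two-sided binomial test, Benjamini-Hochberg adjusted over the 19714 genes whose counts summed to 10 or more. This test compares 2 libraries and covers counting error only. It called 8314 genes, or 42.2%, at an adjusted p of 0.05. Of the 5 members 3 were called, all of them higher in replicate 1, a direction in which 20.1% of all tested genes were called. The median log2 ratio was -0.31 over the members and 0.02 over all tested genes.

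RN7SL2 differed most, with a log2 ratio of -1.20 (95% interval -1.60 to -0.82) and an adjusted p of 6.88e-10 by the exact binomial test. At the depth of replicate 1, the difference came to 93.4 counts, or 4.94 times the posterior SD of the difference. RN7SL3, of whose 248 stretches of 50 bases 93 (37.5%) recurred elsewhere, fewer than in RN7SL2, had a log2 ratio of -0.09 and an adjusted p of 0.847 in the same exact test. The identifier ENSG00000258486 had a log2 ratio of -0.55 and an adjusted p of 4.25e-16 in that exact test.

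RN7SK and MIR3648 were called with smaller ratios. RN7SK had a log2 ratio of -0.34 (95% interval -0.63 to -0.06) and an adjusted p of 0.0386 by the exact binomial test. MIR3648 had -0.31 (-0.54 to -0.08) and an adjusted p of 0.0178 by that exact test. RMRP, at -0.29 with a lower bound of -0.58, had an adjusted p of 0.0983 by the exact test and was not called. TERC, at -0.05, had an interval of -0.92 to 0.85, so that its counts were compatible with a wide range of log2 ratios in either direction.

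The ratio between these libraries moved with the GC content of transcripts, and the members are richer in GC than the median of 49.9% over tested genes. In the highest of 50 classes of GC content the median log2 ratio was -0.28. With the GC trend removed, the log2 ratio of RN7SL2 was -0.95 (adjusted p 3.55e-06, exact binomial test). The ratio of RN7SK became -0.14 (adjusted p 0.562) and that of MIR3648 -0.032 (adjusted p 0.923) in the same exact test, so that both calls ended. This left 1 of the 5 members called, against 28.8% of the 19293 genes that could be so tested. RMRP came to -0.04 and TERC to 0.22, a change of sign within its interval. MIR3648 is richer in GC than the highest class of genes in the trend, whose median was 67.6%, and was given the value of that class. The identifier ENSG00000258486 had no GC value, so its ratio kept the GC trend. The ratios of the sums of RN7SL2 with RN7SL3 and with that identifier kept it too.

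**Figure D3:**
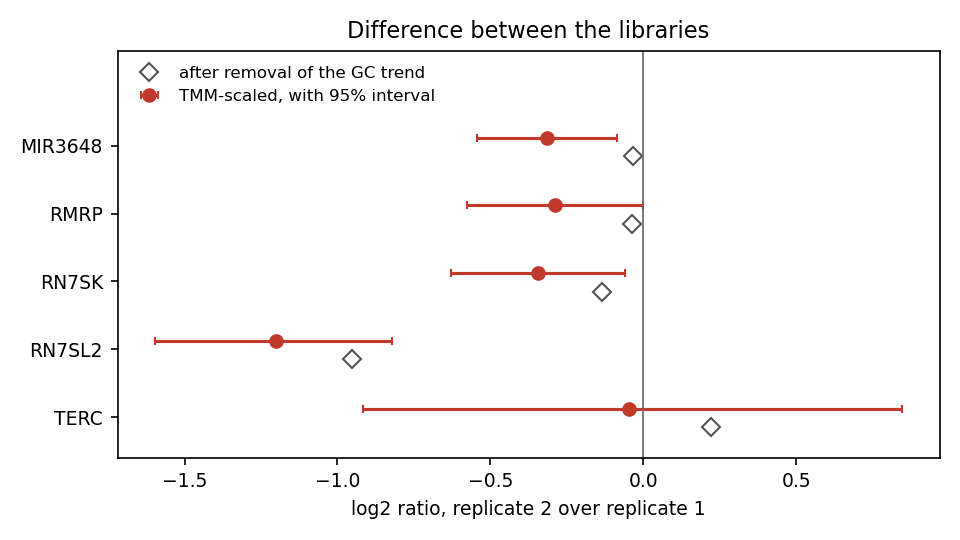
Log2 ratio of replicate 2 over replicate 1 for each member, with 95% intervals from counting error (filled circles), and the same ratio after removal of the GC trend (open diamonds). RN7SL2 stands apart at -1.20 and -0.95, whereas the diamonds of the other members lie between -0.14 and 0.22.

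The mRNAs for proteins of the same particles carry poly(A) tails and were set beside the RNAs. All 31 listed genes of 4 lists were detected. RN7SL2 taken alone lay below most of its partners. The median of 6 SRP protein genes was 112 TPM in replicate 1 and 122 in replicate 2, or 3.07 and 7.23 times RN7SL2. With RN7SL3 and the unnamed identifier ENSG00000258486 added, the sum was 286 and 203 TPM, which is above these medians. Whether that identifier belongs with 7SL RNA was not tested. SRP9 and SRP14, whose products bind the Alu domain of 7SL RNA, had 249 and 345 TPM and 324 and 341 TPM. SRP19, which helps to assemble the particle, had 35.3 and 50.6 TPM. The posterior SD of SRP9, at 103 and 131 counts, shows that some of its reads had several possible origins. Of the 6 genes 4 were called between the libraries, 3 of them higher in replicate 2. Of all tested genes 42.2% were called. With the GC trend removed SRP9, SRP54, SRP68 and SRP72 were called, all of them higher in replicate 1, against 28.8% of all genes so tested. SRP19 lost its call, and the log2 ratio of SRP9 turned from 0.37 to -0.30.

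RN7SK lay amid its partners. The median of 7 genes for proteins of the 7SK particle and P-TEFb was 28.0 and 36.3 TPM, against 41.2 and 34.6 for the RNA. CDK9, the kinase of P-TEFb, had 61.6 and 63.1 TPM, and HEXIM1, the inhibitor that 7SK RNA brings to it, had 14.3 and 17.5. LARP7, which binds the 3′ end of 7SK RNA, had 72.3 and 148 TPM, and its log2 ratio of 1.04 (0.38 once the GC trend was taken out) was opposite in sign to that of the RNA. MEPCE, which caps the 5′ end, had 72.9 and 62.9 TPM. All 7 genes were called, 4 of them higher in replicate 2, against 42.2% of all tested genes. With the GC trend removed 3 of the 7 were called, against 28.8% of all genes so tested.

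RMRP lay above most genes of its list in TPM. The list covers both enzymes together, so not every gene on it need be a partner of RMRP. The median of 11 genes for proteins of RNase P and RNase MRP was 33.0 and 26.6 TPM, and 3 of the 11 exceeded RMRP in each library. POP7, a subunit that binds the RNA, had 96.4 and 84.7 TPM, and RPP40 had 6.83 and 7.31. Of the 11 genes 4 were called (POP4, POP7, RPP25 and RPP25L), all of them higher in replicate 1. Over all tested genes 42.2% were called, and 20.1% were called higher in replicate 1. With the GC trend removed 1 of the 11 was called, against 28.8% of all genes so tested. It was RPP30, which was not among the earlier 4. In expected counts the order was different, with 10 of 11 above RMRP.

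TERC lay far below its partners. The median of 7 genes for telomerase proteins was 86.9 and 92.5 TPM, or 28.1 and 28.8 times TERC. DKC1, the pseudouridine synthase that binds TERC and other H/ACA RNAs, had 299 and 335 TPM, and NOP10 had 180 and 160. TERT, the catalytic subunit, was closest to TERC with 3.85 and 3.86 TPM from 237 and 282 counts. Of the 7 genes 3 were called, all of them higher in replicate 1. Over all tested genes 42.2% were called, 20.1% of them all in that direction. Without the GC trend 3 of the 7 were called, against 28.8% of all genes so tested. WRAP53 lost its call (adjusted p 0.168, exact binomial test) and NAF1 gained one (adjusted p 0.0365).

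**Figure D4:**
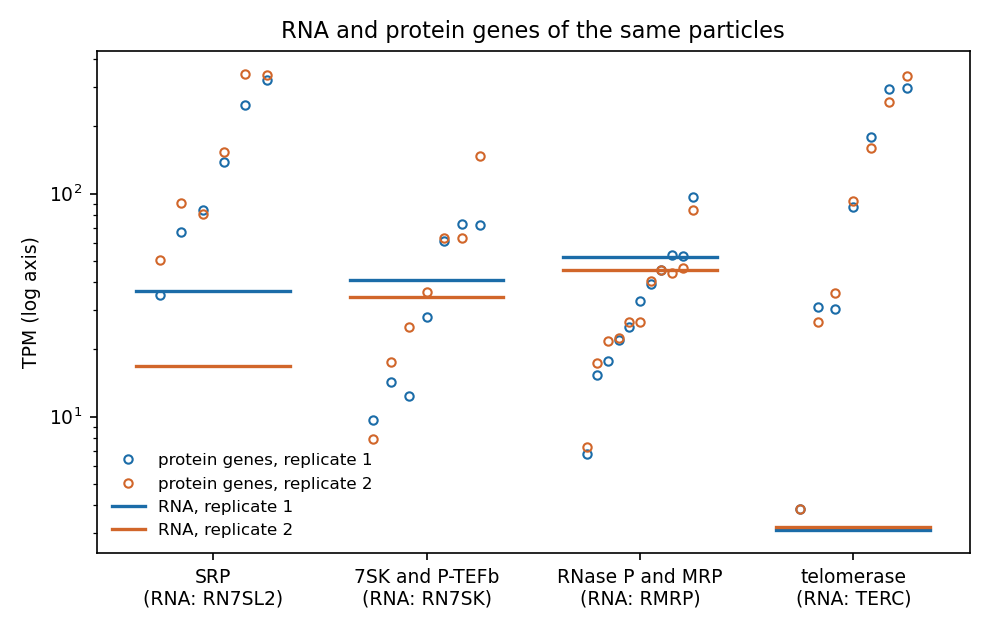
TPM of the RNA (horizontal lines) and of the protein genes (open circles, ordered by mean) of 4 particles in replicate 1 (blue) and replicate 2 (orange), on a log axis. RN7SL2 lies below all SRP genes in replicate 2, RN7SK and RMRP lie among theirs, and TERC lies below all of its partners with TERT the nearest.

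Other structured RNAs were mostly below the members. Of 40 further RNAs named (Y RNAs, vault RNAs, spliceosomal RNAs, small nucleolar RNAs and others), 32 were listed, 8 were detected and 14 had no count in either library, among them RNU5A-1, an RNA of the spliceosome, and VTRNA1-1, a vault RNA, both named after their values were seen. By mean TPM the highest 5 were BCYRN1, RN7SL3, RNY1, SCARNA7 and MIR3687. RNY1, a Y RNA, had 11.8 and 15.6 TPM from 14 and 21 counts, and SCARNA7, of Cajal bodies, had 12.1 and 13.8 TPM from 62 and 81 counts. BCYRN1 had 22959 and 22084 counts, but its entry has a length of 13458 bases against 200 in the annotation, so its mean of 86.6 TPM does not measure the short RNA alone. Of 10 tested, 5 were called, all of them higher in replicate 1. Over all tested genes 42.2% were called, and 20.1% were called higher in replicate 1. The 5 were BCYRN1, SNORD3A and 3 copies of the U6 gene (RNU6-1, RNU6-2 and RNU6-9). The last 4 of these were named after their values were seen. Each of these U6 copies held 11.2 counts in replicate 1, with posterior SDs of 6.99 to 8.12, and 0 in replicate 2, with 6.61 to 8.61. Their upper bounds in replicate 2, at 18.0 to 22.8 TPM, lay above the 10.4 TPM of each in replicate 1. The exact test leaves this uncertainty out, so the 3 calls are not taken as separate differences. Once the GC trend was taken out 5 of the 10 were called as well, against 28.8% of all genes so tested. SNORD3A lost its call (adjusted p 0.0892, exact binomial test) and SCARNA7 gained one (adjusted p 0.0288).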

How the data were processed

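Poly(A)+ RNA of HEK293T cells after heat shock was measured in 2 libraries of 1 group. Per the labels and the submitters' processing notes, reads were trimmed with Trimmomatic 0.36, mapped to GRCh37 with STAR 2.6.1c and quantified with RSEM 1.3.1. The authors deposited, for each gene, its length, effective length, expected count, TPM, FPKM and posterior SD, with credibility bounds. The deposited expected counts estimate reads and share those of several origins among genes. The deposited TPM and FPKM values are normalized to length and library by the authors, and FPKM was not used for any result. The posterior SDs and credibility bounds, a signal that is never negative, were deposited as RSEM gave them, at a level that no source used here states. A table of both replicates pooled by the authors was kept apart. No source used here states the strand setting.

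Names, positions and GC content came from GENCODE release 44 on GRCh37, matched by gene identifier for 55501 of 57736 identifiers and by transcript identifier for 794 more. Coordinates are 1-based. RefSeq tables gave gene neighbours only. The sequences of RN7SL2 and MIR3648 are not reported here. Every 50-base window of a member was searched for exact matches on both strands of the genome. TMM factors (edgeR 4.0.16) were 0.991 and 1.01. The log2 ratio used a pseudocount of 0.5 count, and expected counts were rounded for the exact binomial test (SciPy 1.17.1), which was tested on simulated data. With 1 group, no quasi-likelihood contrast between conditions could be fitted, and an exact permutation test of 2 libraries against 2 could not go below p = 0.3333. The GC trend was the median log2 ratio in 50 classes of genes whose counts summed to 100 or more. Intervals cover counting error only.

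The members and lists were chosen with earlier results of these data known. Named were the 7 members, all genes of the 4 particle lists, the 5 highest other structured RNAs, the 3 pseudogenes of highest count in a family, the 2 genes nearest to a member in log2(TPM + 1), and adjacent genes. Alternatives were DESeq2 1.42.0 size factors, library totals, other pseudocounts and count minimums, removal of the GC trend, the exact test of edgeR at a biological coefficient of variation set to 0.1, other detection limits, whole deposited length, addition of pseudogenes and each library alone.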

Additional observations from a re-analysis of the deposited data

How the results depend on the processing

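Of 91 alternative values, 75 kept their direction and their side of the threshold, stayed within the spread of the replicates or, for counts of genes, stayed within 1.5 times. Among these counts, 2 members rather than 3 were called with library totals and with a count minimum of 1, and 4 rather than 5 were detected at 5 TPM, where TERC fell short. Part of the 75 was fixed in advance. A level or share from 1 library alone always lies within the spread of 2 replicates around their mean. The pseudocount does not enter the exact binomial test, so it could not change a call. With expected counts divided by the whole deposited length, the mean level was 42.7 TPM for RMRP, 3.02 for TERC and 97.4 for MIR3648, and the members' share of all TPM was 0.0202%. That share was 0.00360% in expected counts and 0.0373% with pseudogenes of the families added. The log2 ratio of RN7SK lost its call with library totals (-0.32, adjusted p 0.0619), with the GC trend removed (-0.14, adjusted p 0.562), with a summed count of at least 1 (-0.34, adjusted p 0.0609) and in the edgeR exact test (-0.34, adjusted p 0.563). The log2 ratio of MIR3648 lost its call with the GC trend removed (-0.032, adjusted p 0.923) and in the edgeR exact test (-0.31, adjusted p 0.572). TERC changed sign with the GC trend removed (0.22, adjusted p 0.830, exact binomial test), and at a summed count of at least 100 it was not tested. With the GC trend removed 1 member was called, against 28.8% of all genes, and in the edgeR exact test 1, against 7.69%. That edgeR test, which assumes more spread between libraries by construction, called 1516 genes against 8314. RN7SL2 kept its call in each of these tests, but its mean level rests on unequal libraries, 36.4 TPM in replicate 1 and 16.9 in replicate 2. The cause of the GC trend was not tested. No paired analysis was possible because the libraries form 1 group, so replicate numbers link no samples across groups. Depth limits TERC most, with 22 and 26 counts.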
